A study of Rattus norvegicus with 24 samples.

Results

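The proliferative zone of the rat growth plate, where cartilage cells divide and stack into columns, was set against the average of its neighbours, the resting zone on one side and the hypertrophic zone on the other. The difference picks out genes that peak or dip in the column cells. The arrays were chosen by their labels as the proliferative, resting and hypertrophic zone arrays with the same label wording, joined by animal number. They are 15 of the 24 arrays of the series, 5 in each zone, from 5 numbered animals. All 3 zones came from the proximal tibia of 1-week-old male rats that were not castrated and received no treatment named in the labels. Frozen sections of 60 µm were cut apart by hand under a microscope, and 50 to 100 ng of RNA was amplified in a pair of cycles before hybridisation to Affymetrix rat arrays. The other 9 arrays are 5 of the transition zone, which lies between proliferative and hypertrophic cells, and 4 of epiphyseal cartilage. They are worded differently in the labels, which name no sex for them, so they are given only as levels beside the result, and batch and zone cannot be told apart there.

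In a growth plate, slowly cycling resting cells under the epiphysis give rise to flat proliferative cells that divide along the axis of the bone. These cells slide past each other to form columns, and they secrete a matrix of type II collagen and aggrecan. Near the far end of the column they leave the cell cycle, enlarge and mineralize their matrix before bone replaces it. Indian hedgehog from the first enlarging cells and parathyroid hormone-related protein from resting cells set the length of the column, with bone morphogenetic proteins, Wnt proteins, fibroblast growth factors and insulin-like growth factors acting along it.

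Signals are the deposited MAS5 intensity values of each probe set, and every fold change or difference was taken on log2(signal + 16), where changes of dim probe sets come out too small. A probe set was tested if it lay above its own array's median in at least 5 of the 15 arrays, and a gene was represented by its brightest tested probe set. The difference was the proliferative level minus the mean of the resting and hypertrophic levels, fitted with limma and a term for each animal, and a call needed a Benjamini-Hochberg adjusted p below 0.05 and a difference of at least 2-fold. A gene was called a peak or a dip if, in addition, the proliferative zone lay on the same side of both neighbours and the larger of its p-values against each, adjusted over all probe sets, was below 0.05. Errors of differences are standard errors of the fit, and errors of signals are SDs over 5 arrays.

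In the signals as deposited, more genes dipped in the column cells than peaked, but scaling the arrays to one median reversed that order over probe sets, with 172 peaks and 145 dips. Of 9851 genes tested, 275 (2.79%) were called higher in the proliferative zone than in the average of its neighbours and 527 (5.35%) lower. Peaks were 86 of these genes (0.873%) and dips 114 (1.16%), and the proliferative array lay beyond both neighbours in all 5 animals for 84 of the 86 peaks and 109 of the 114 dips. The median difference was 0.05 over all genes, 1.39 over the peaks and -1.82 over the dips, where the rule for a call sets the direction. The remaining 189 higher and 413 lower genes were called against the average without passing the test against both zones. Some of them, such as Ibsp and Mmp13, still lay beyond both zones in all 5 animals. The plot of the difference from each neighbour shows the peaks in the upper right and the dips in the lower left. Of the peaks, 8 were above the median in fewer than 5 resting and hypertrophic arrays and so passed the filter through the proliferative arrays. Among them were Fabp6, Duox2 and Rnf182. Fabp6 and Duox2 were above the median in no resting or hypertrophic array and had to differ for that reason. Of the dips, 27 were above the median in no proliferative array and passed the filter through the resting and hypertrophic arrays alone. Among these were F13a1, Grem1, Pitpnm3, Igf1, Myzap, Abca3, Ero1b, Tnnt2, Myom1 and Acvrl1. The direction of these 27 is partly set by the filter.

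**Figure D1:**
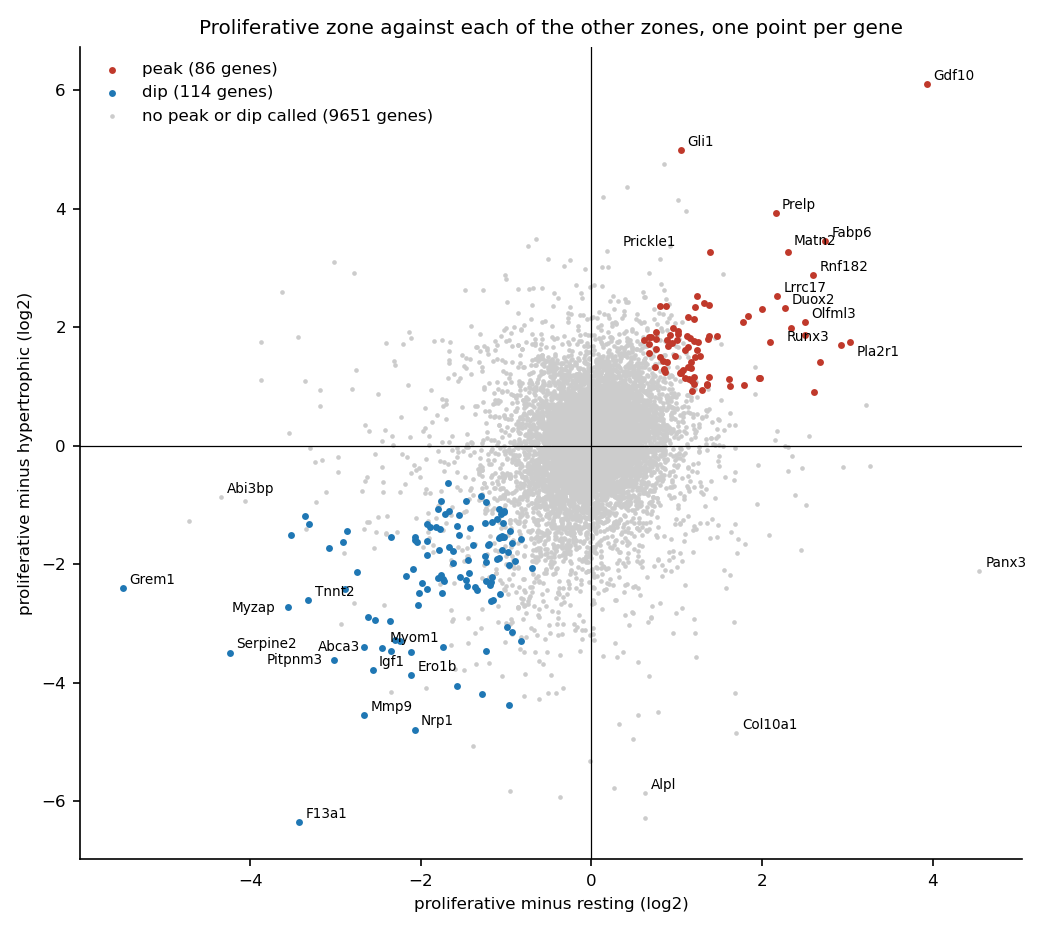
Each point is 1 of the 9851 genes tested, placed by its difference in log2(signal + 16) between the proliferative and resting zones (x axis) and between the proliferative and hypertrophic zones (y axis), fitted over 15 arrays of 5 animals. Coloured points are the 86 peaks and 114 dips, and the names mark the 12 largest of each and 4 grey genes that were neither (Abi3bp, Alpl, Col10a1, Panx3), with Gdf10 farthest out among the peaks and F13a1 among the dips.

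The count of peaks depended on which animals were in the fit. Over the 17228 probe sets tested, 460 (2.67%) were called higher and 875 (5.08%) lower, with 133 peaks (0.772%) and 186 dips (1.08%). With 1 animal left out, peaks and dips were 82 and 112 (animal 1), 61 and 100 (animal 2), 80 and 114 (animal 3), 122 and 158 (animal 4), and 65 and 114 (animal 5). Higher calls were 34.5% of all calls over probe sets, and 45.9% when the arrays were scaled to one median, where peaks outnumbered dips. The median difference over probe sets was 0.0327 before and 0.134 after that scaling.

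The labels were checked against genes known to mark each zone. Grem1, made by resting cells to block bone morphogenetic proteins, had signals of 6.7, 8.9, 86.5, 8.5 and 42.9 in the proliferative arrays of animals 1 to 5, 1128, 1261, 2059, 2441 and 2048 in the resting arrays and 349, 238, 130.1, 175 and 122 in the hypertrophic arrays. Col10a1, the collagen of hypertrophic cartilage, had 4132, 4898, 1533, 628 and 1939 in the proliferative arrays, 236, 727, 490.4, 525 and 2136 in the resting arrays and 118264, 64624, 35544, 46026 and 63170.4 in the hypertrophic arrays. Mki67, a nuclear protein of dividing cells, had 3696, 3079.5, 3053, 2878 and 4034 in the proliferative arrays, 2237, 1663, 1664, 1469.5 and 1887 in the resting arrays and 1922, 1418, 1084, 2714 and 4544 in the hypertrophic arrays. Grem1 and Col10a1 each set their own zone apart with no overlap, and Mki67 was above the resting array in every animal but below the hypertrophic array of animal 5. Its difference from the average was 0.80 ± 0.20 (adjusted p = 0.00748), under 2-fold and so not called. Over the list of 16 resting zone markers, the mean log2 signal was 7.547 ± 0.139 (SD, n = 5) in the proliferative, 9.838 ± 0.143 in the resting and 8.316 ± 0.45 in the hypertrophic arrays. The 20 hypertrophic markers averaged 10.12 ± 0.297, 9.769 ± 0.26 and 12.77 ± 0.196 in the same zones.

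Some arrays stood apart by markers of other tissues, and on average both neighbours held more of them than the column cells did. The 6 erythroid markers summed to signals of 2503 to 6809 in the proliferative, 3419 to 9233 in the resting and 10200 to 36880 in the hypertrophic arrays. Those of osteoclasts and macrophages summed to 775.4 to 1671 in the proliferative, 1600 to 25960 in the resting and 9177 to 85550 in the hypertrophic arrays. Skeletal muscle markers summed to 22580 to 42870, 21820 to 134700 and 43910 to 110400 in these zones. The muscle markers were high in the resting arrays of animals 1, 3 and 5, at mean log2 signals of 11.22, 12.11 and 11.66 against 8.57 and 8.84 in the other 2, and the bone, osteoclast and fibroblast markers were highest in the hypertrophic array of animal 4. Called lower in the proliferative zone were 6 of 6 erythroid, 4 of 6 leukocyte, 5 of 8 osteoclast and macrophage, 5 of 6 osteoblast and bone matrix, 2 of 6 endothelial, 11 of 16 skeletal muscle and 5 of 18 perichondrium and fibroblast markers, and 0 of 1 adipocyte marker. Over all genes, 5.35% were called lower. The perichondrium and fibroblast marker Thy1 was called higher. In the plot of marker lists by array, the muscle markers show the split among the resting arrays and the bone markers the single high hypertrophic array. Their part in the results for other genes was not tested, except that each result was also fitted without the hypertrophic array of animal 4 and, separately, without the resting arrays of animals 1, 3 and 5, both chosen after the data were seen. The second of these left 2 resting arrays, 27 peaks and 48 dips over probe sets.

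**Figure D2:**
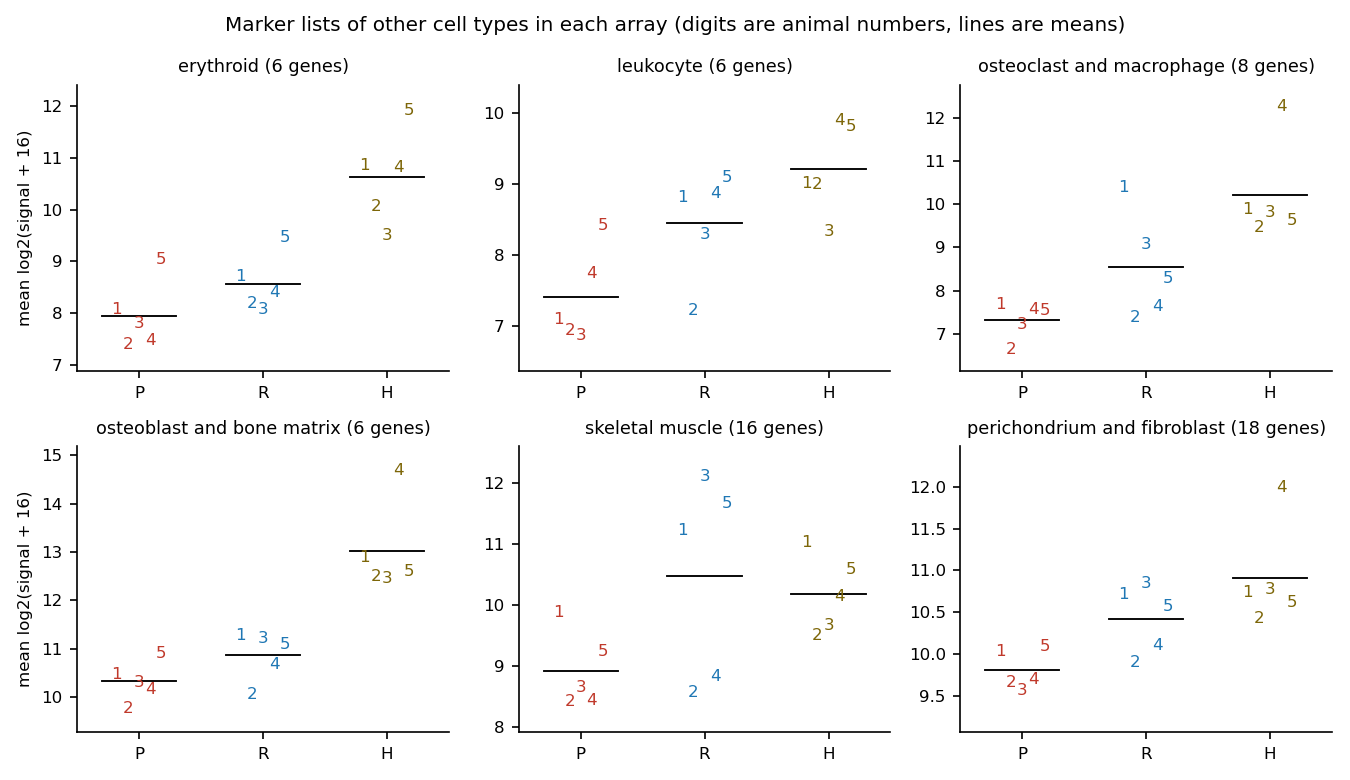
Each digit is 1 array, named by its animal, and its height is the mean log2(signal + 16) over the tested genes of a marker list, for the proliferative (P), resting (R) and hypertrophic (H) zones (n = 5 arrays each), with lines at the zone means. The resting arrays of animals 1, 3 and 5 sit above the other resting arrays for muscle markers, and the hypertrophic array of animal 4 sits above the others for osteoclast and bone markers.

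Genes of cell division were higher in the column cells than in the average of their neighbours as a broad group with modest folds. In the list of mitosis and kinesin genes, which encode the spindle, kinetochore and cytokinesis machinery, 20 of 45 (44.4%, against 2.79% of all genes) were called higher and none lower, with a median difference of 0.97 against 0.05 over all genes. The proliferative mean lay above both neighbours in 43 of the 45. In the DNA replication list 8 of 30 (26.7%) were called higher and none lower, with a median of 0.90, and all 30 lay above both neighbours. Mcm2, a subunit of the replicative helicase, rose by 1.49 ± 0.26, and the polymerase subunits Pold1 and Pola1 and the helicase activator Cdc45 rose by 1.15, 1.06 and 1.13. None of the 30 replication genes was called a peak, and 6 mitosis genes were. Since these are whole tissue samples, fewer cells of a type and less RNA per cell cannot be told apart in any result.

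The promoters of these 6 mitosis peaks are shown because the genes moved together and because late cell cycle genes are known to share a pair of short elements near their start. One is the cell cycle homology region, searched as TTTGAA or TTTAAA, and the other is the CCAAT box, searched as CCAAT. Both strands were read over the 250 bases before 1 annotated start per gene in assembly GRCr8, and matches are in capitals. For every gene shown but Melk, that start lay inside the gene's RefSeq span, farthest inside for Ttk and Kif23. Distances below are from that start only. The regions are chr5:63335901-63336150 (+ strand) for Melk, chr8:71320585-71320834 (− strand) for Kif23, chr8:93634389-93634638 (+ strand) for Ttk, chr3:74396719-74396968 (− strand) for Spc25, chr3:127057045-127057294 (+ strand) for Nusap1 and chr10:28406327-28406576 (− strand) for Pttg1.
Melk: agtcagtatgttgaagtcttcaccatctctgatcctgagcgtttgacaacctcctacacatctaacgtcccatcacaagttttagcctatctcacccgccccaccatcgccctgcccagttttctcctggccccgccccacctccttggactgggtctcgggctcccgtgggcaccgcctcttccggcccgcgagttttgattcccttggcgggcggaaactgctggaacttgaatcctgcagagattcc
Kif23: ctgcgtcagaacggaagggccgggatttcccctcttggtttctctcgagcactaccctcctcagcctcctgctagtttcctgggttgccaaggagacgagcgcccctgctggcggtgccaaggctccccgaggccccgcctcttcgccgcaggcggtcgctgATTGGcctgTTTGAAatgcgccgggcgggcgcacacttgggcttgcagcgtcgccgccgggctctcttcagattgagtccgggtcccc
Ttk: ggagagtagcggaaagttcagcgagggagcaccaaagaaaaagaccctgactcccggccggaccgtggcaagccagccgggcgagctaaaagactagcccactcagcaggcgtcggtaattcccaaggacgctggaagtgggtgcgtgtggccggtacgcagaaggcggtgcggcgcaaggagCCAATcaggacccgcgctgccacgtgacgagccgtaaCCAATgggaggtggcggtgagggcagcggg
Spc25: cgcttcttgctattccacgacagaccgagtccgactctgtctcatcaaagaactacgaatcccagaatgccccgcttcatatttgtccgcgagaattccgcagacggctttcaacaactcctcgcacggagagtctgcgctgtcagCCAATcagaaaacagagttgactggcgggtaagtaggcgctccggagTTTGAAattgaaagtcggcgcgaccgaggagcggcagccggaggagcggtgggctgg
Nusap1: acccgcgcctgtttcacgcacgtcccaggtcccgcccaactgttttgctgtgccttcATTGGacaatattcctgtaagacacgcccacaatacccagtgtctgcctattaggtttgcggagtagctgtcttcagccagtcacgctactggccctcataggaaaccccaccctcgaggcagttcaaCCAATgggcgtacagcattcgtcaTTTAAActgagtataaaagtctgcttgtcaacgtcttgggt
Pttg1: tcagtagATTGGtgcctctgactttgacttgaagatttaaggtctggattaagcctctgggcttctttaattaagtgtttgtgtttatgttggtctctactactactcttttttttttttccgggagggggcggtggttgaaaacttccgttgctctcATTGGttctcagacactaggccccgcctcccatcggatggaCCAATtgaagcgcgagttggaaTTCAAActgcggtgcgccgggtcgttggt
The cell cycle element lay 79 bases before the start of Kif23, 57 before that of Spc25, 41 before that of Nusap1 and 29 before that of Pttg1. In each of these a CCAAT box lay farther out, at 88, 104, 65 and 51 bases. Ttk held only CCAAT boxes, and Melk neither motif in this window. Of the 40 tested mitosis genes with a promoter in the table, 31 (77.5%) held the cell cycle element and 31 (77.5%) a CCAAT box, against 16.3% and 36% of 8273 tested genes and 25.4% and 34% of all 33469 promoters in the table. Of 27 replication genes, 4 (14.8%) held the cell cycle element and 16 (59.3%) a CCAAT box. An E2F site, searched as TTTNNCGC, was found in 15% of the mitosis, 25.9% of the replication and 7.34% of all tested genes. Over all 63 peak genes with a promoter the shares were 22.2% for the cell cycle element, 38.1% for the CCAAT box and 12.7% for the E2F site. None of the motifs contains another, and a match describes the letters in this window only.

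Melk, a kinase of dividing cells, had signals of 1507, 1305, 1538, 1273 and 1468 in the proliferative arrays of animals 1 to 5, 789, 758, 743, 421 and 561 in the resting arrays and 367, 173, 385, 449.8 and 221 in the hypertrophic arrays. Every proliferative value lay above every value of both neighbours, and the difference was 1.65 ± 0.20 (adjusted p = 2.05e-05). Kif23, a kinesin of the central spindle, had 2513, 1739.9, 1382, 1743 and 2108 in the proliferative, 1171, 1353, 671, 699.5 and 1074 in the resting and 367, 653, 412, 744 and 653 in the hypertrophic arrays. The lowest proliferative value was barely above the highest resting one, and the difference was 1.34 ± 0.18 (adjusted p = 7.14e-05). Ttk, the spindle checkpoint kinase, rose by 1.66 ± 0.26, and Spc25, a kinetochore subunit, by 1.45 ± 0.22. Nusap1, a microtubule-binding spindle protein, rose by 1.06 ± 0.18, and Pttg1, which encodes securin, by 1.13 ± 0.22. For Ttk and Nusap1 only 1 of the 2 tested probe sets was called. The gap to the resting zone was the smaller one for 5 of these 6 genes, at 1.13 for Melk and 0.95 for Kif23 against 2.17 and 1.74 to the hypertrophic zone, and for Pttg1 the gaps were 1.18 and 1.09. Every one of the 6 lost its peak call in at least 1 fit without an animal: Melk without animal 1, 3 or 5 (adjusted p from 0.0512 to 0.0812), Kif23 without animal 3 or 5 (adjusted p from 0.113 to 0.117), Ttk without animal 2, 3 or 5 (adjusted p from 0.0535 to 0.0813), Spc25 without animal 1, 2, 3, 4 or 5 (adjusted p from 0.0572 to 0.172), Nusap1 without animal 1, 2, 3 or 5 (adjusted p from 0.0854 to 0.139) and Pttg1 without animal 1, 2 or 3 (adjusted p from 0.103 to 0.194). With no mean-variance trend 2 of the 6 were peaks, and without the resting arrays of animals 1, 3 and 5 none was (adjusted p from 0.104 to 0.61). The count of 20 higher mitosis genes was 15 to 26 in those fits, 26 without the hypertrophic array of animal 4 and 22 without the 3 resting arrays. For replication it was 8 of 30, and 5 to 13 with 1 animal left out, 13 without that hypertrophic array and 15 when the arrays were scaled to one median.

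Other growth genes were higher in the column cells. Hjurp, the chaperone that loads the centromeric histone, peaked at a mean signal of 774 ± 204 in the proliferative arrays, against 321 ± 83.9 in the resting and 159.6 ± 110.5 in the hypertrophic arrays, a difference of 1.78 ± 0.24. Its peak call was lost without animal 2, 3, 4 or 5 (adjusted p from 0.0502 to 0.131). Hjurp was 1 of 3 histone and chromatin assembly genes called higher of 15 (2.79% over all genes), with Hells, a chromatin remodeller, at 1.11 and Asf1b, a histone chaperone, at 1.06. The Hells call was lost without animal 3 (adjusted p = 0.0704) and with a pseudocount of 64 (0.89, under 2-fold). Myc, a transcription factor that drives growth, had signals of 925, 951, 1281, 535 and 637 in the proliferative, 348, 404, 488, 283 and 224 in the resting and 259, 251, 197, 366 and 145 in the hypertrophic arrays. All proliferative values lay above all others, and the difference was 1.50 ± 0.21 (adjusted p = 7.51e-05). Its peak call was lost without animal 1, 2 or 5 (adjusted p from 0.0522 to 0.0575). Pvt1, a long noncoding RNA gene next to Myc, chosen after its values were seen, had 3617, 5387, 5773, 3646 and 4067 in the proliferative, 1814, 3024, 2451, 2759 and 2726 in the resting and 372, 1045, 931, 1027 and 1201 in the hypertrophic arrays. It too had no overlap with either neighbour, at 1.58 ± 0.16, and it lost its peak call without animal 1, 2, 3 or 5 (adjusted p from 0.0521 to 0.184).

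Of 27 genes of ribosome biogenesis, which Myc is known to regulate, Rrs1 (1.26 ± 0.13) and Nop56 (1.00 ± 0.15) were called higher, and 26 had a positive difference, with a median of 0.49. Nop56 lay at the threshold. It was under 2-fold without animal 1 (0.997) or animal 4 (0.90) and without the hypertrophic array of animal 4 (0.97). The same held with a pseudocount of 64, quantile normalization or array weights. Rrs1 was also a peak, and not so without animal 1, 2, 3 or 5 (adjusted p from 0.0501 to 0.126). In the list of D cyclins, G1 regulators and inhibitors of cyclin-dependent kinases, Myc and Ccne2 (1.32), a cyclin of S phase entry, were called higher of 19. Cdkn1a, which encodes the kinase inhibitor p21, was called lower at -1.30 ± 0.20, and Rb1, the retinoblastoma brake on E2F factors, at -1.54 ± 0.25. Cdkn1a was low in the proliferative (769.8 ± 176) and resting (618 ± 346) arrays alike and high in the hypertrophic (6292 ± 811) ones. Ccnd2, a D cyclin, had 11800 ± 1571 in the proliferative, 8912 ± 1530 in the resting and 5234 ± 1086 in the hypertrophic arrays, a difference of 0.80 ± 0.13 that is under 2-fold. Of 15 nucleotide synthesis genes only Rrm1, the large subunit of ribonucleotide reductase, was called, at 1.05 ± 0.24. It was under 2-fold without animal 1 (0.95) or animal 3 (0.87). Over all genes 2.79% were called higher and 5.35% lower, so 1 call among 15 genes does not set that list apart.

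Gdf10 had the largest peak, and none of the 6 mitosis genes ranked among the 12 largest. Gdf10, a secreted member of the transforming growth factor beta family also known as BMP3b, had signals of 4594, 4779.5, 6738, 4822 and 4494 in the proliferative arrays of animals 1 to 5, 179, 397, 377, 329.7 and 343 in the resting arrays and 105, 37.2, 112, 3.3 and 117 in the hypertrophic arrays. No proliferative value was near the others, and the difference was 5.02 ± 0.32 (adjusted p = 7.7e-08), a fold of 32.4 over the geometric mean of its neighbours. Transition arrays had 543, 654, 2887, 930 and 901 and the 4 epiphyseal arrays 67.6, 65.4, 88 and 132. These gaps were not tested, and batch and zone cannot be told apart in them. In the plot of the 12 largest peaks, Gdf10 shows the widest gap of any gene.

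**Figure D3:**
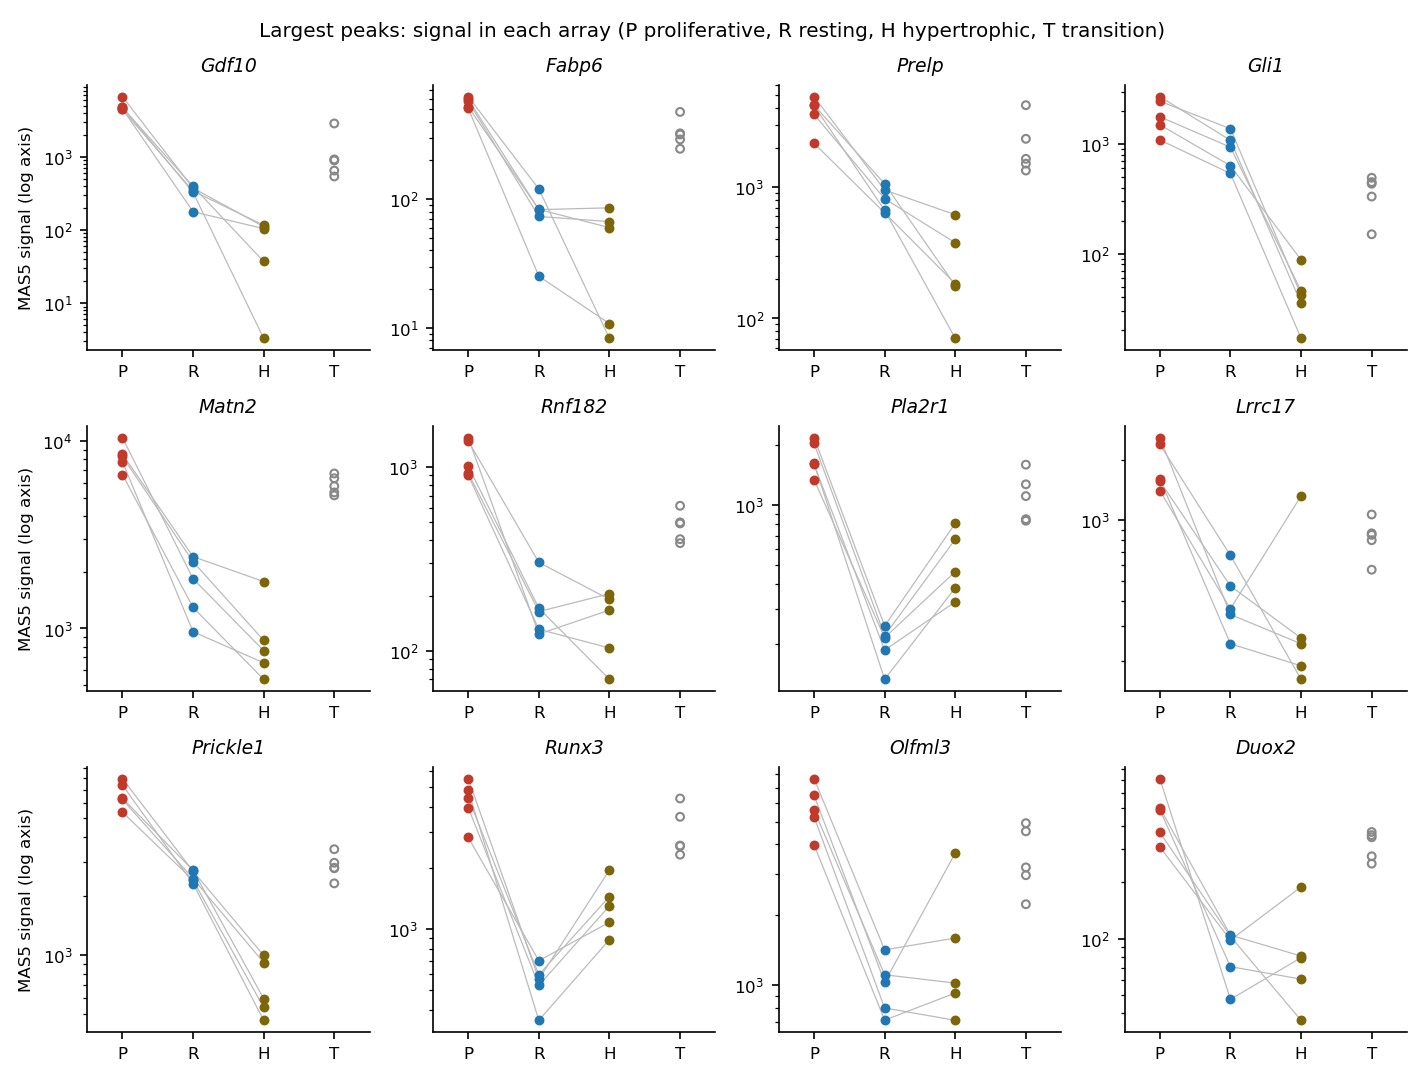
Signal on a log axis of the 12 genes with the largest peaks, 1 point per array in the proliferative (P), resting (R), hypertrophic (H) and transition (T) groups (n = 5 each). Gdf10 lies at 4494 to 6738 in the proliferative arrays and at most 397 in every resting and hypertrophic array, while the proliferative and resting values of Gli1 overlap.

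Within bone morphogenetic protein and transforming growth factor beta signalling, 5 of 36 tested genes were called higher and 5 lower, with a median difference of -0.01. The shares over all genes were 2.79% higher and 5.35% lower. Smad1, which carries the bone morphogenetic protein signal to the nucleus, had 2694, 2290.4, 2425, 2773 and 1303 in the proliferative, 796, 689.8, 694, 676 and 685 in the resting and 1343, 669, 1096, 1241 and 1318 in the hypertrophic arrays. It was above both neighbours in 4 of 5 animals and just below the hypertrophic array in animal 5, with a difference of 1.32 ± 0.17 in 1 of its 2 tested probe sets. Its peak call was lost without animal 1, 2 or 3 (adjusted p from 0.0609 to 0.0917). Smad9, a second carrier of that signal, and Bmper, an extracellular modulator, were called higher at 1.41 and 1.73 without being peaks. On the side of the dips stood Grem1, at -3.95 ± 0.36 (adjusted p = 1.67e-06), whose signals are given above and which was lower in every proliferative array than in any array of either neighbour. Bmp1, a protease that matures procollagen and releases bone morphogenetic proteins, had 968, 984, 912, 1101 and 1048 in the proliferative, 2354, 3336, 1869.8, 3783 and 2927 in the resting and 3626, 4002, 2549, 4911 and 4672 in the hypertrophic arrays. All proliferative values lay below those of both neighbours, whose ranges overlapped, and the difference was -1.69 ± 0.12, in 1 of 2 tested probe sets. Ltbp1, which stores latent transforming growth factor beta in the matrix, fell by 2.31 on the log2 scale, with means of 96.2 ± 29.9, 1092 ± 255 and 283 ± 117 in the proliferative, resting and hypertrophic arrays. In animal 1 its hypertrophic value was below the proliferative one, and the dip call was lost without animal 2, 3, 4 or 5 (adjusted p from 0.142 to 0.267) and without the hypertrophic array of animal 4 (adjusted p = 0.0712). Bmp3 and Bmp6 (-1.64) were called lower and were not dips.

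The hedgehog system held 2 peaks among 11 tested genes, where 0.873% of all genes were peaks. Gli1, which hedgehog signalling induces and which encodes a transcription factor, had 1768, 1494, 1088, 2702 and 2452 in the proliferative arrays, 934, 633, 538, 1079.5 and 1376 in the resting arrays and 45.7, 87.8, 16.9, 35.2 and 41.9 in the hypertrophic arrays. The proliferative and resting ranges overlapped, although the proliferative array was the higher in each animal, and every hypertrophic value was far below both. The difference from the average was 3.02 ± 0.21 (adjusted p = 1.38e-07), made of 1.05 to the resting and 4.99 to the hypertrophic zone, so the smaller side decides the peak (adjusted p = 0.0331). That call was lost without animal 1, 3, 4 or 5 (adjusted p from 0.0785 to 0.117), with no replicate block (adjusted p = 0.124), and with all 24 arrays, no mean-variance trend, a pseudocount of 1 or quantile normalization (adjusted p from 0.05 to 0.0783), while the difference from the average kept its call in each of these fits. Kif7, a kinesin of the primary cilium that relays the signal to Gli proteins, had a mean of 1443 ± 325 in the proliferative, 839.5 ± 102 in the resting and 599 ± 275 in the hypertrophic arrays, a difference of 1.03 ± 0.15. Its peak call was lost without animal 1, 2, 4 or 5 (adjusted p from 0.0962 to 0.189), and without animal 5 the difference itself was just under 2-fold, at 0.99. Boc, a hedgehog co-receptor, Pth1r, the receptor of parathyroid hormone-related protein, and Ihh, the ligand, were called lower than the average and were not dips. Boc was highest in the resting zone and Pth1r in the hypertrophic zone. The median of the list was -0.02. None of the 29 tested genes of the primary cilium was called in either direction at the 2-fold threshold, and their median was 0.23.

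Planar polarity genes, known in chick and mouse growth plates to orient column cells, were represented by Prickle1, which encodes a core cytoplasmic polarity protein. It had 7383, 6317, 7960.5, 5367 and 6228 in the proliferative arrays, 2317, 2708, 2681, 2412 and 2457 in the resting arrays and 464, 599, 996, 539.5 and 915 in the hypertrophic arrays. The 3 zones formed separate steps with no overlap, proliferative above resting above hypertrophic, and the difference was 2.32 ± 0.14 (adjusted p = 5.86e-08). Genes of the same pathway outside the fixed lists, named after their values were seen, were Ptk7, a polarity receptor (1.88 ± 0.27), Kif26b, a kinesin of noncanonical Wnt signalling (1.40 ± 0.18), and Dact1, a Dishevelled-binding protein (1.25 ± 0.18). Of the 3 tested probe sets of Kif26b, 2 were called and 1 had the opposite sign. Their proliferative means were 4752 ± 905, 3010 ± 617 and 2386 ± 995, against resting means of 1864 ± 656, 1539 ± 562 and 1132 ± 246. All 3 lost their peak calls in fits without an animal, Ptk7 without animal 1, 2 or 5 (adjusted p from 0.0991 to 0.122), Kif26b without animal 1, 2 or 5 (adjusted p from 0.0516 to 0.119) and Dact1 without animal 1, 2 or 5 (adjusted p from 0.0886 to 0.102). In the list of Wnt and planar polarity genes as a whole, 2 of 26 were called higher and 3 lower (2.79% and 5.35% over all genes), with a median of -0.14. Frzb, a secreted Wnt inhibitor, was the 1 dip, with means of 9969 ± 2989 in the proliferative, 31160 ± 4588 in the resting and 15460 ± 4044 in the hypertrophic arrays and a difference of -1.16 ± 0.13. Its dip call was lost without animal 1, 2, 3 or 5 (adjusted p from 0.0813 to 0.218).

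Matrix genes split between a few high peaks and a flat core. Matn2, an adaptor protein of the matrilin family, had 10470.1, 8301, 8547, 6648 and 7786 in the proliferative, 1845, 2276, 2421, 1295 and 961 in the resting and 762, 864, 1781, 535 and 655 in the hypertrophic arrays. Prelp, a leucine-rich proteoglycan that binds collagen, had 4192, 2163, 4901, 4221 and 3593 in the proliferative, 666, 638, 952, 1060.5 and 817 in the resting and 70.6, 184, 617, 178 and 378 in the hypertrophic arrays. For both, every proliferative value was above all values of the neighbours, and the differences were 2.79 ± 0.17 and 3.04 ± 0.26 (adjusted p = 5.86e-08 and 8.73e-07). In the transition arrays Matn2 still had 5863 ± 671 and Prelp 2210 ± 1183, and in epiphyseal cartilage 314 ± 60.6 and 243 ± 101 (n = 4). Of 29 cartilage matrix genes 5 were called higher and 4 lower, against 2.79% and 5.35% of all genes. The higher ones were Matn2, Prelp, Scrg1 (1.45), Ucma (1.44) and Fmod (1.05), the last encoding the collagen-binding fibromodulin. Lower were Dcn, Vit, Cytl1 and Tnc, and among them Dcn, the proteoglycan decorin, was a dip with means of 314 ± 76.8, 2905 ± 1132 and 1355 ± 1264 in the proliferative, resting and hypertrophic arrays. The Dcn dip was lost without animal 2 or 3 (adjusted p from 0.0619 to 0.0673). The main structural genes had differences near 0 and were not called, with Col2a1 at -0.09, Col9a1 at -0.04, Col11a1 at -0.07, Col11a2 at -0.08, the aggrecan gene Acan at -0.13 and the link protein gene Hapln1 at 0.05.

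Other large peaks had varied roles. Runx3, a runt transcription factor that acts in cartilage maturation in mice, had 4799, 2818, 5486, 4415 and 3951 in the proliferative, 356, 699, 567, 596 and 528 in the resting and 887, 1079, 1949, 1443 and 1299 in the hypertrophic arrays. Its proliferative values were above all others and its resting values below all hypertrophic ones, at 2.31 ± 0.17 (adjusted p = 1.9e-07) in 1 of 2 tested probe sets. Pla2r1, a receptor that binds phospholipases, had the same order, with 1604, 2042, 2183, 1620 and 1343 in the proliferative, 187, 222, 248, 134 and 216 in the resting and 327, 674, 811, 385 and 464 in the hypertrophic arrays. Fabp6, a bile acid binding protein best known from the ileum, had 577, 597, 523, 627 and 508 in the proliferative, 73.4, 83, 83.2, 120.1 and 25.2 in the resting and 67, 85.7, 60.2, 8.3 and 10.8 in the hypertrophic arrays. Its proliferative values lay close together and above all others, and the difference was 3.10 ± 0.35.

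Rnf182, a ubiquitin ligase, averaged 1134 ± 261 in the proliferative arrays, 178 ± 72.5 in the resting arrays and 147 ± 57.9 in the hypertrophic arrays, at 2.74 ± 0.21. It passed the filter only with the help of the proliferative arrays, so its peak is partly set by the filter. Olfml3, a secreted olfactomedin domain protein, averaged 5799 ± 1371, 1014 ± 279 and 1585 ± 1213 in these zones, and Lrrc17, a secreted leucine-rich repeat protein, 1907 ± 531, 419 ± 162 and 436 ± 497. For both, the hypertrophic array of animal 4 came close to the lowest proliferative array, and Lrrc17 lost its peak call without animal 3 or 5 (adjusted p from 0.0516 to 0.057). Duox2, an oxidase that makes hydrogen peroxide, averaged 475 ± 156 in the proliferative, 84.8 ± 24.9 in the resting and 89.3 ± 58.4 in the hypertrophic arrays. Thy1, a surface glycoprotein of fibroblasts and other cells, was a peak at 1.39 ± 0.18 in 1 of 2 probe sets, although the rest of its marker list was not called higher. Of the 12 largest peaks, 8 of the 10 that could be tested without each animal kept their calls throughout, Gli1 and Lrrc17 being the exceptions, and Fabp6 and Duox2 could not pass the filter with 4 animals. With only 2 resting arrays 7 of the 12 kept them, and Fabp6, Prelp, Gli1, Lrrc17 and Prickle1 did not.

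F13a1 had the largest dip. It encodes the catalytic subunit of the transglutaminase factor XIII and had signals of 91.8, 129, 49.4, 92.8 and 46.9 in the proliferative arrays of animals 1 to 5, 2363, 957, 745, 1038 and 521 in the resting arrays and 8668, 13509.7, 4059, 8457 and 6363 in the hypertrophic arrays. The 3 zones did not overlap, and the difference was -4.89 ± 0.20 (adjusted p = 5.16e-10) in 2 of 2 probe sets, a 29.7-fold lower level than the geometric mean of the neighbours. Transition arrays had 1656, 1295, 817, 2602 and 1997. F13a1 is also known from macrophages. Of 8 tested osteoclast and macrophage markers 5 were called lower in the proliferative zone, and their part in the dip was not tested. Serpine2, an inhibitor of serine proteases, had 494, 287, 486, 235 and 351 in the proliferative, 12629, 7279.7, 5777, 6376 and 5076 in the resting and 2999.9, 2538, 4200.5, 14144 and 2805 in the hypertrophic arrays. No value of the neighbours came near those of the proliferative zone, and the difference was -3.87 ± 0.31. The plot of the 12 largest dips shows these gaps in every array.

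**Figure D4:**
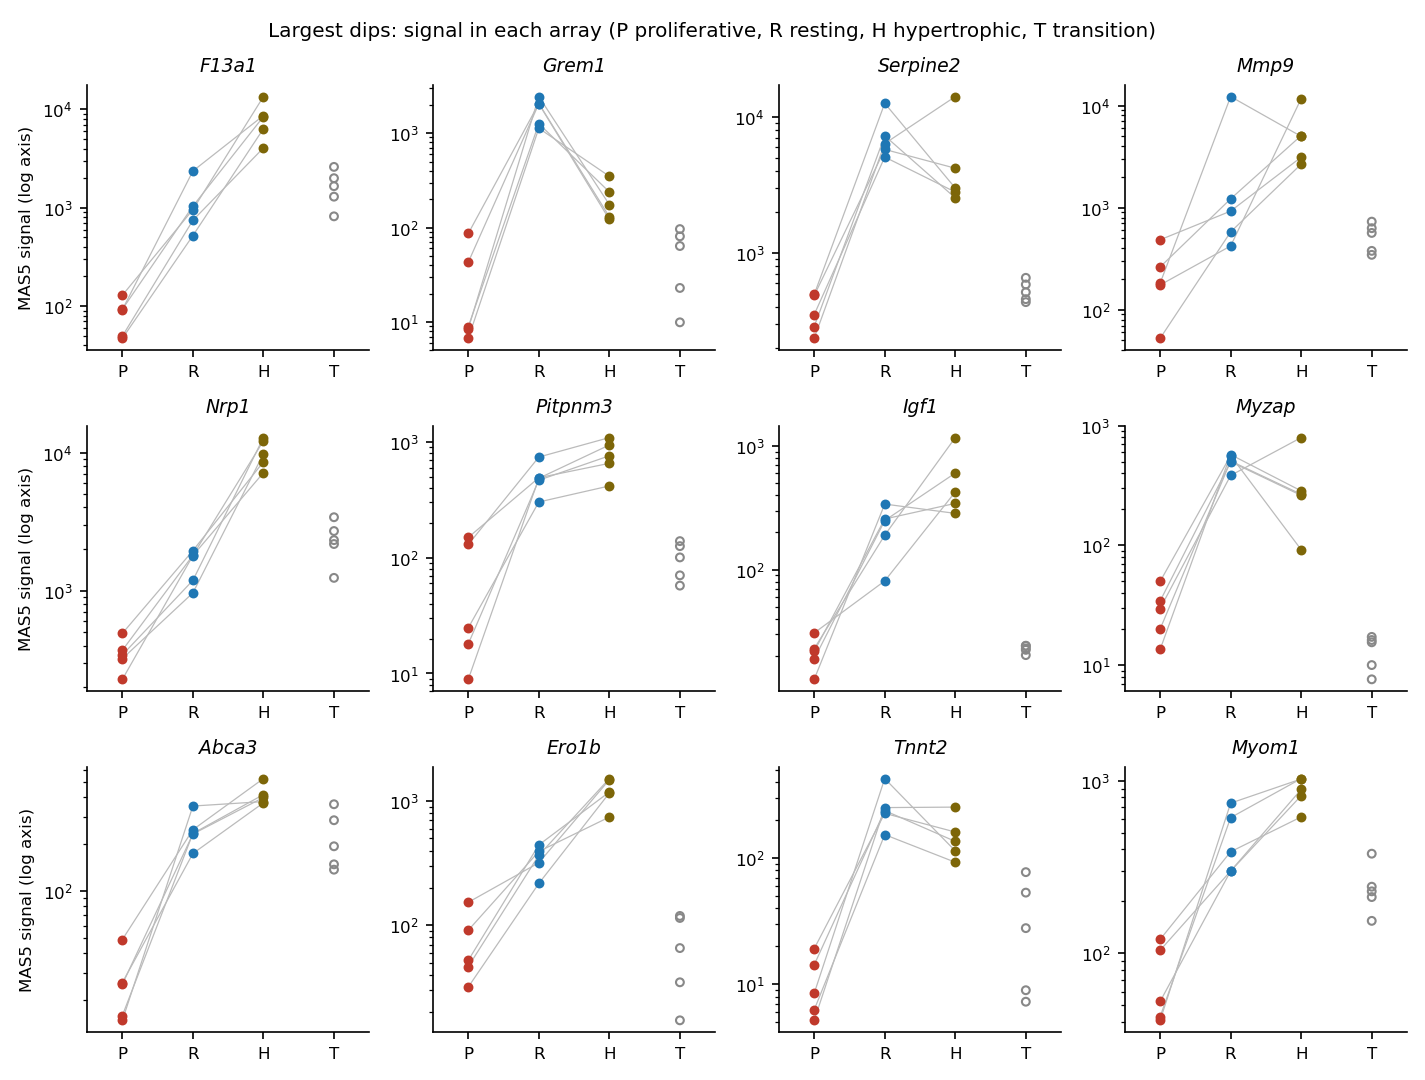
Signal on a log axis of the 12 genes with the largest dips, 1 point per array in the proliferative (P), resting (R), hypertrophic (H) and transition (T) groups (n = 5 each). F13a1 is at most 129 in the proliferative arrays and at least 521 in all resting and hypertrophic arrays, and Mmp9 is the 1 gene whose proliferative and resting values overlap.

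Mmp9, a gelatinase that osteoclasts make in large amounts, had 182, 52.5, 262, 175 and 484 in the proliferative arrays, 12238, 579, 1219.6, 421 and 925 in the resting arrays and 4985, 2668, 5079.7, 11697 and 3122 in the hypertrophic arrays. The resting array of animal 1 was far above the other resting arrays, and the proliferative array of animal 5 was above the resting array of animal 4. Mmp9 is itself on the osteoclast and macrophage list, and the dip (-3.61 ± 0.51, adjusted p = 0.00011) was lost without animal 1, 2 or 3 (adjusted p from 0.0749 to 0.136). In the list of matrix proteases and their inhibitors 7 of 21 were called lower (5.35% over all genes) and none higher, with a median of -0.59. Timp3, an inhibitor of metalloproteinases, averaged 1057 ± 245 in the proliferative, 1519 ± 344 in the resting and 12050 ± 3397 in the hypertrophic arrays, and the collagenase Mmp13 differed by -3.02 ± 0.45. Neither was a dip, since the gap to the resting zone did not pass.

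Igf1 and Igfbp5 dipped in the column cells, and the receptor gene Igf1r was higher there, by under 2-fold in its brighter probe set. Igf1, the growth factor that promotes cell growth and division along the column, had 19, 21.9, 13, 23 and 30.8 in the proliferative arrays, 249.5, 257, 339, 190 and 81.1 in the resting arrays and 604, 343, 285, 1168 and 425 in the hypertrophic arrays. All proliferative values were lower than any of the neighbours, as were the transition values of 23.1, 20.4, 24.3, 24.2 and 22.5, and the difference was -3.18 ± 0.35 (adjusted p = 1.06e-05). Igfbp5, a binding protein of the factor, had means of 178 ± 77.9 in the proliferative, 625 ± 194 in the resting and 914 ± 513 in the hypertrophic arrays, at -2.02 ± 0.30 in 2 of 3 probe sets. Its dip was lost without animal 1 or 3 (adjusted p from 0.0545 to 0.0623). Igf1r, the receptor gene, had means of 4790 ± 891, 2874 ± 744 and 2392 ± 447 in these zones. Its difference of 0.87 ± 0.16 passed the test (adjusted p = 0.000727) but was under 2-fold. This is the brighter of its 2 tested probe sets, and the other was called higher. Of 26 growth hormone and insulin-like growth factor genes, 5 were called lower (Igf1, Igfbp5, Igfbp4, Igfbp7 and Stc2), against 5.35% of all genes, and none higher, with a median of -0.40. That median was 0.04 when the filter was set at the 75th percentile. Without the resting arrays of animals 1, 3 and 5 the Igf1 dip was lost (adjusted p = 0.108) and 3 of the list were called lower.

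Among receptors, Fgfr1, a receptor of fibroblast growth factors, had 451, 806, 491, 1125 and 1036 in the proliferative arrays, 2324, 2413, 2577, 2654 and 2707 in the resting arrays and 3748, 4159.7, 1713, 4716 and 3568 in the hypertrophic arrays. All proliferative values lay below those of both neighbours, whose ranges overlapped, and the difference was -1.98 ± 0.18 (adjusted p = 1.6e-06) in 2 of 2 probe sets. Fgfr4, another receptor of that family, was called higher at 1.33 ± 0.29 without being a peak, and Dusp6, a phosphatase that dampens the signal, lower at -1.06. These were the 3 called of 15 in the list, whose median was -0.42. The shares over all genes were 2.79% higher and 5.35% lower. Nrp1, a co-receptor of semaphorins and vascular endothelial growth factor, had 369.9, 322, 228, 490.1 and 342 in the proliferative, 1802, 963, 1794, 1949 and 1187 in the resting and 12159, 9792, 7148, 8569 and 12833 in the hypertrophic arrays. It formed 3 steps, lowest in the proliferative zone and highest in the hypertrophic zone, at -3.43 ± 0.18 in 2 of 2 probe sets. Ackr3, a receptor that clears the chemokine CXCL12, named after its values were seen, had the same order, with means of 346 ± 106, 1032 ± 101 and 5984 ± 1363 and a difference of -2.82 ± 0.16.

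Of the growth plate transcription factors, 3 of 20 were called higher (Runx3, Dlx5 and Zfp521) and 4 lower (Foxa2, Runx1, Barx1 and Tbx18), against 2.79% and 5.35% of all genes. Runx1, another runt factor, had 20.4, 82, 91.4, 228 and 205 in the proliferative, 759, 296, 507, 1054 and 979 in the resting and 984, 944, 573, 1000.3 and 967 in the hypertrophic arrays. It was thus lowest where Runx3 was highest, at -2.74 ± 0.30 (adjusted p = 9.85e-06). Foxa2, a forkhead factor of late chondrocyte differentiation in mice, had means of 320.2 ± 115, 602 ± 137 and 2859 ± 719 in the proliferative, resting and hypertrophic arrays, at -2.04 ± 0.17. The Foxa2 dip was lost without animal 3, 4 or 5 (adjusted p from 0.0511 to 0.102) and without the 3 resting arrays (adjusted p = 0.743). The Runx1 dip was lost without those 3 arrays as well (adjusted p = 0.177), and not without any 1 animal.

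Of 18 tested perichondrium and fibroblast genes, 2 were dips (Lox and Col6a1), 3 more were called lower without being dips, Thy1 was a peak and 12 were not called. Dips were 1.16% and peaks 0.873% of all genes. Lox, the lysyl oxidase that cross-links collagen and elastin, had 488, 1033, 379, 615 and 939 in the proliferative, 1378, 3604, 2447, 6164 and 5609.8 in the resting and 4994, 9527, 5332, 12863 and 6264 in the hypertrophic arrays. Col6a1, a chain of the collagen around each chondrocyte, had 2681, 2351, 1337, 2176 and 3094 in the proliferative, 11672, 8126, 6361, 12063 and 9135 in the resting and 18818, 13009.8, 14907, 10406 and 17713 in the hypertrophic arrays. For both genes all proliferative values lay below those of the neighbours, and the differences were -2.91 ± 0.20 and -2.36 ± 0.16 (adjusted p = 1.33e-07 and 9.41e-08). The 18 genes of the list summed to 27960 to 40700 in the proliferative, 44690 to 64100 in the resting and 82900 to 199100 in the hypertrophic arrays. Without the hypertrophic array of animal 4 both stayed dips. Sulf2, a gene of the glycosaminoglycan list that trims sulfate from heparan sulfate, had means of 211 ± 158, 692 ± 176 and 945 ± 125 in these zones, at -2.25 ± 0.33. Its dip call was lost without the resting arrays of animals 1, 3 and 5 (adjusted p = 0.264).

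The remaining large dips included genes of secretion, lipid handling and muscle. Ero1b, an oxidase that recharges disulfide formation in the endoplasmic reticulum, had 153, 52.3, 91.3, 31.9 and 46.6 in the proliferative, 319, 444, 393, 217 and 366 in the resting and 1485, 1183, 744, 1161 and 1516 in the hypertrophic arrays. It was the only dip among 37 genes of collagen processing and secretion, of which 1 other, P4ha3, was called, as higher. Those counts are near the shares over all genes, 1.16% for dips and 2.79% for higher calls. Abca3, a lipid transporter, averaged 26.3 ± 13.8 in the proliferative, 248 ± 64.4 in the resting and 418 ± 64.3 in the hypertrophic arrays, and Pitpnm3, a phosphatidylinositol transfer protein, 66.3 ± 67.8, 498 ± 156 and 772 ± 260.1. The differences were -2.99 ± 0.25, -3.03 ± 0.26 and -3.32 ± 0.31, and in all 3 genes the proliferative values lay below those of both neighbours.

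Myom1, a protein of the muscle sarcomere, had 120.4, 52.6, 40.9, 104 and 42.9 in the proliferative, 388, 299.8, 742, 299.9 and 611 in the resting and 617, 819, 1023, 890.3 and 1029 in the hypertrophic arrays, at -2.94 ± 0.27. Tnnt2, the cardiac form of troponin T, averaged 10.7 ± 5.91, 259 ± 101 and 151 ± 62.4 in these zones, and Myzap, known from the junctions of heart muscle cells, 29.5 ± 14.1, 506 ± 75.6 and 341 ± 267. All 3 were lower in every proliferative array than in any neighbour. The mean log2 signal of the 16 muscle markers was higher in the resting arrays of animals 1, 3 and 5. Myom1 was higher in those 3 as well, at 388, 742 and 611 against 299.8 and 299.9 in animals 2 and 4. The resting values of Tnnt2 and Myzap did not separate by those animals. The part of muscle tissue in the dips of these genes was not tested. Of the muscle list, 11 of 16 were called lower, but 7 without animal 1, 4 without animal 5 and 3 without those resting arrays, and the fit without the arrays also lost the dips of Myom1 (adjusted p = 0.123) and Myzap (adjusted p = 0.1). Of the 12 largest dips, 10 of the 11 that could be tested without each animal kept their calls, Mmp9 being the exception, and Tnnt2 passed the filter, of these fits, only in that without animal 2. Of 11 tested without the 3 resting arrays, 6 kept them, and Grem1, Mmp9, Igf1, Myzap and Myom1 did not.

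The other lists had fewer calls, and the plot of the functional and marker lists sets their members side by side. Over all genes 2.79% were called higher and 5.35% lower, and the glycolysis counts below are near these shares. Of 28 genes of glycosaminoglycan synthesis, Extl1 and Chsy3 were called higher and Has2 and Sulf2 lower, with a median of 0.41. Ugdh, which makes the sugar precursor of these chains, had 10330 ± 2394 in the proliferative, 4630 ± 1301 in the resting and 6112 ± 2001 in the hypertrophic arrays, just under 2-fold at 0.97 ± 0.14. Of 26 genes of glycolysis and the response to low oxygen, Car9, a carbonic anhydrase, was called higher and Adm, a vasodilator peptide, lower. Of 24 integrin and adhesion genes, 5 were called lower, among them Itga6 (-1.43 ± 0.15), Itgb3 (-2.51 ± 0.45) and the cadherin gene Cdh11 (-1.83). Of 22 channels and solute carriers, Panx3 and Cldn10 were called higher and 6 lower, Piezo1, a mechanically gated channel, at -1.10 ± 0.13. Among genes given by their difference, Cdkn1a, Extl1, Itga6, Nop56 and Pth1r were called in 1 of 2 tested probe sets and Cdc45 in 2 of 3. Of 21 immediate-early and stress genes, which handling of tissue can also induce, 7 were called lower and none higher, with a median of -0.82. Without animal 3 the counts called lower were 3 of the integrin, 2 of the cartilage matrix, 1 of the hedgehog, 3 of the growth hormone and 0 of the endothelial genes, and 1 histone gene was called higher. Without the resting arrays of animals 1, 3 and 5 they were 2 of the integrin, 3 of the osteoclast and 3 of the osteoblast genes. As a check of RNA quality, the log2 ratio of actin signal at the 3' and 5' ends averaged 4.47 ± 0.307 in the proliferative, 4.027 ± 0.254 in the resting and 4.308 ± 0.303 in the hypertrophic arrays, and its part in these counts was not tested.

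**Figure D5:**
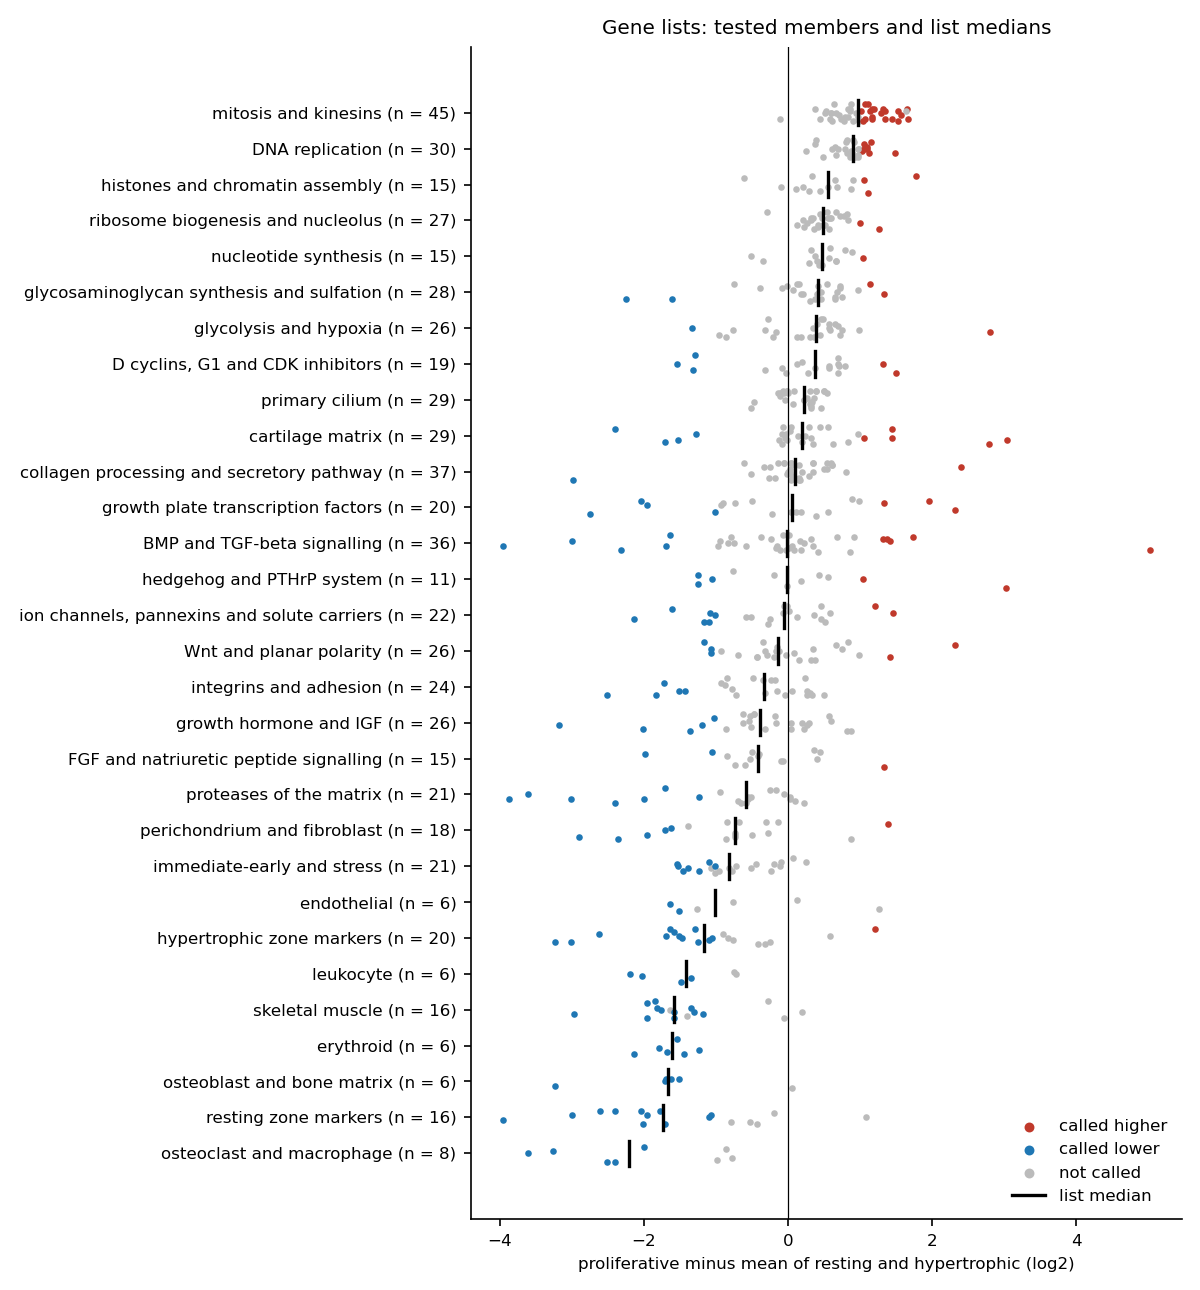
Each point is 1 tested gene of a functional or marker list, placed by its difference in log2(signal + 16) between the proliferative zone and the mean of the resting and hypertrophic zones. The adipocyte list, with 1 tested gene, is left out. Coloured points are called higher or lower, black ticks are list medians, and the mitosis (0.97) and DNA replication (0.90) lists have the highest medians.

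Many genes far from the average were high or low in 1 neighbour only, which the rule for peaks and dips leaves out. Tgfbi, a matrix protein induced by transforming growth factor beta, averaged 15880 ± 2958 in the proliferative, 15550 ± 2717 in the resting and 2450 ± 619 in the hypertrophic arrays. Scrg1, a chondrocyte secreted protein (11060 ± 3080, 11510 ± 2201 and 1457 ± 574), and P4ha3, a collagen prolyl hydroxylase subunit (2651 ± 355, 1993 ± 338 and 142 ± 122), had the same shape, level across column and resting cells and low beyond. Car9, at 2.80 ± 0.33, had 1907 ± 197, 1139 ± 464 and 69.8 ± 52.4. Has2, a hyaluronan synthase, had the opposite shape, with 625 ± 269 in the proliferative and 671 ± 183 in the resting arrays and 5385 ± 2362 in the hypertrophic arrays. Boc was highest in the resting zone, at 1086 ± 300.5, 9668 ± 905 and 723 ± 359 in the proliferative, resting and hypertrophic arrays. Panx3, a channel of maturing chondrocytes, was called higher than the average with signals of 10414, 10486, 5599, 6611 and 5110.5 in the proliferative, 298, 377, 237, 390 and 223 in the resting and 47409, 38425, 29962, 20424 and 28898 in the hypertrophic arrays, and so lay between its neighbours. Among called genes that were not peaks or dips, 17 higher ones had a proliferative level below the resting zone and 7 below the hypertrophic zone, and 43 lower ones had a proliferative level above the resting zone and 6 above the hypertrophic zone.

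The levels of the peaks and dips were also read in the zones outside the comparison. The genes were chosen for extreme values in the same proliferative arrays, so the directions below are partly set by that choice. In the transition zone, the mean of the 86 peaks was below the proliferative mean in 81, between proliferative and hypertrophic in 66 and below the hypertrophic mean in 15. The median gap of the proliferative zone over the peaks was 0.86 to the transition zone, 1.19 to the resting zone, 1.74 to the hypertrophic zone and 1.56 to epiphyseal cartilage. Of the 114 dips, the transition mean was above the proliferative mean in 93, with a median gap of -0.67, against -1.62 to the resting zone, -1.96 to the hypertrophic zone and -1.93 to epiphyseal cartilage. Epiphyseal cartilage lay below the proliferative zone for all 86 peaks and above it for all 114 dips, directions that the choice of genes favours. The same shares over all tested genes were not counted. The mitosis list had mean log2 signals of 9.843 ± 0.222 in the proliferative, 9.088 ± 0.276 in the resting, 8.645 ± 0.434 in the hypertrophic, 7.843 ± 0.233 in the transition and 8.808 ± 0.455 (n = 4) in the epiphyseal arrays, so it was lower in transition than in hypertrophic samples. These gaps carry no test, since the transition and epiphyseal arrays are worded differently in the labels.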

How the data were processed

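RNA from hand-dissected zones of rat tibial cartilage was hybridised to Affymetrix arrays. The authors deposited intensity values, namely linear MAS5 signals by probe set, per the submitters' processing notes. The MAS5 release was not given in the sources used here. Leaving out the lowest and highest 2% of probe sets, each of the 15 arrays had a mean signal of 500.15 to 500.18, and the medians were 141.2 to 208.7. Detection calls were not used, and the number of arrays limits the precision.

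Signals were neither rescaled nor normalized again before log2(signal + 16) was taken. After removal of 57 controls from 31099 probe sets, 17228 (55.5%) passed the filter on low values. Symbols are those of the platform annotation, brought up to date through gene identifiers in the RefSeq table of assembly GRCr8. One symbol was found for 12760 tested probe sets, several for 295 and none for 4173, and only the first kind was named, which gave 9851 genes. Some list genes were not analysed here.

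The fit used limma 3.58.1 in R 4.3.3 with a mean-variance trend, the animal as a fixed block, 8 residual degrees of freedom and 8.34 prior ones, and Benjamini-Hochberg adjustment over all tested probe sets. The labels' sample descriptions give each of the 15 arrays its animal number. As a check of this pairing, deviations from zone means had a median correlation over probe sets of 0.205 in 15 same-numbered pairs of arrays (-0.104 to 0.357) and -0.0532 in 60 other pairs, and 13 of 15 arrays were most like an array of their own number. No pair within a zone shared more than 50 identical values, so none was a duplicate.

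The members and the 31 gene lists were chosen with earlier results of these data known. Named genes are the 12 largest peaks and 12 largest dips with 1 symbol that lay beyond both zones in every animal, up to 4 members of each list with the smallest adjusted p, and Grem1, Col10a1 and Mki67. Others were named after their values were seen, among them Ttk, Spc25, Nusap1, Pttg1, Smad1, Ltbp1 and list members given by their difference alone.

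On simulated data (17228 probe sets, 100 changed at each size) the contrast found 90 changes of 3-fold and 100 of 6-fold, with 7 false calls. The rule for peaks and dips found 79 and 98, with 0 false calls. Of 200 probe sets changed in the hypertrophic zone alone, 163 passed the contrast and 0 were called peaks or dips. The simulated noise was Gaussian and independent between probe sets, and all other probe sets had no zone difference. The data differ in both respects, so these false call counts need not hold there.

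Alternative settings were pseudocounts of 1 and 64, quantile normalization, one common median, the filter dropped or set at the 75th percentile, no replicate block or a random one, a fit of all 24 arrays, no trend, array weights, list values averaged over a gene's probe sets, and leaving out each animal. Leaving out the hypertrophic array of animal 4, or the resting arrays of animals 1, 3 and 5, was added after the data were seen. Plots were made with matplotlib 3.10.9 (Python 3.11.15).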

Additional observations from a re-analysis of the deposited data

Results flagged for a closer look

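Within groups of 5, an animal was marked when its value stood apart from the other 4 by more than Dixon's criterion allows, which chance does in about 1 in 20 groups. Among 148 named genes, looked at as the per-animal difference of the proliferative zone from the mean of its neighbours, 10 were marked. Serpine2 was lower by -5.244 in animal 4, against -3.833 to -3.299 in the others, and Runx1 by -4.596 in animal 1, against -2.482 to -2.098. Smad1 differed by only 0.448 in animal 5, against 1.368 to 1.73. Thbs3, a thrombospondin gene, differed by 2.355 in animal 4 (1.742 to 1.86 in the others). Hemgn was at -1.987 in animal 5 and Spry4 at -1.867 in animal 4. Tk1, thymidine kinase of dividing cells, was lowest at 0.633 in animal 2. Cd68, a macrophage marker, was at -2.505 in animal 4, Dync2li1, a cilium motor gene, at 1.282 in animal 3, and Tcap, a muscle gene, at -2.743 in animal 3.

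Of 30 groups of marker list levels, 5 were marked. In the hypertrophic array of animal 4 the mean log2 signal was 14.69 for osteoblast and bone matrix genes (12.46 to 12.89 in the others), 12.27 for osteoclast and macrophage genes, 11.99 for perichondrium and fibroblast genes and 9.083 for resting zone markers. In the proliferative array of animal 5 the resting zone markers averaged 7.788, against 7.426 to 7.512 in the others. None of 9 groups of array quality measures was marked.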

How the results depend on the processing

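Calls of higher (460) and lower (875) probe sets stayed within 1.5 times of these counts in every setting tried except the filter at the 75th percentile, which tests fewer probe sets and gave 294 and 430. Peaks (133) were 81 with no mean-variance trend and 211 with array weights. With no trend, 20 of the named peak or dip calls were lost (adjusted p from 0.0532 to 0.135). They were those of Casq1, Dact1, Dcn, Des, Frzb, Gli1, Hjurp, Kif23, Kif26b, Kif7, Ltbp1, Mmp9, Neb, Nusap1, Ptk7, Pttg1, Pvt1, Rrs1, Smad3 and Spc25. Scaled to one median they were 172, against 145 dips, the reverse of the order in the signals as deposited (133 and 186), and Piezo1, Pth1r and Smad3 were then under 2-fold. Leaving out 1 animal gave 414 to 495 higher, 690 to 808 lower, 61 to 122 peaks and 100 to 158 dips. Without the resting arrays of animals 1, 3 and 5, chosen after the data were seen, which leaves 2 resting arrays, there were 27 peaks and 48 dips, of which 27 and 47 were among the 133 and 186. Among the genes named, that fit lost the peak or dip calls of Casq1, Dact1, Dcn, Epas1, Fabp6, Foxa2, Frzb, Gli1, Grem1, Hjurp, Igf1, Igfbp5, Kif23, Kif26b, Kif7, Lrrc17, Ltbp1, Melk, Mmp9, Myc, Myom1, Myzap, Neb, Nusap1, Prelp, Prickle1, Ptk7, Pttg1, Pvt1, Rrs1, Runx1, Slit3, Smad1, Smad3, Spc25, Sulf2, Thy1 and Ttk (adjusted p from 0.0514 to 1). Without the hypertrophic array of animal 4, also added, there were 170 and 209. With no replicate block, which ignores the pairing by animal, 444 probe sets were higher, 836 lower, 102 peaks and 151 dips. Among the genes named, the calls of Casq1, Dact1, Des, Foxa2, Frzb, Gli1, Hjurp, Kif7, Myl1, Neb, Pvt1 and Rrs1 were lost without the block. The list medians of growth hormone genes (-0.395) and endothelial markers (-1.01) turned to 0.0405 and 0.122 at the 75th percentile filter, where fewer members are tested. The cause of the other changes was not tested. Signals near the array median limit what dim probe sets can show, and the fits without an animal have fewer samples by construction.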

Other observations

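Further genes, chosen after their values were seen, widen the account of the dips. Epas1, which encodes an oxygen-sensing transcription factor, had signals of 209, 222, 188, 151 and 243 in the proliferative arrays of animals 1 to 5, 788, 343, 779, 364 and 450.5 in the resting arrays and 4301, 4955, 3111, 3955 and 3668 in the hypertrophic arrays. The zones did not overlap, and the difference was -2.74 ± 0.19. Its dip call was lost without the resting arrays of animals 1, 3 and 5 (adjusted p = 0.504). Slit3, a secreted ligand of Robo receptors, averaged 86.1 ± 78.1 in the proliferative, 499.9 ± 104 in the resting and 624 ± 211 in the hypertrophic arrays, at -2.75 ± 0.35, a dip lost in the same fit (adjusted p = 0.0514). Col6a2, the partner chain of Col6a1, averaged 494 ± 150, 1276 ± 228 and 2610 ± 640.2 in these zones, at -1.87 ± 0.16 in 2 of 2 probe sets. On the receiving side of transforming growth factor beta, Smad3 averaged 342 ± 58.7, 757 ± 206 and 764 ± 254, at -1.08 ± 0.20, and Acvrl1, a receptor best known from blood vessels, 13.8 ± 3.02, 213 ± 77.5 and 165 ± 91.9, at -2.66 ± 0.39. The Smad3 dip was lost without animal 1, 2 or 5 (adjusted p from 0.0719 to 0.136) and without those resting arrays (adjusted p = 0.918), and its difference was under 2-fold without the hypertrophic array of animal 4 (-0.99) and with the arrays scaled to one median (-0.98). The 6 endothelial markers summed to 903.5 to 1448 in the proliferative, 922.5 to 2575 in the resting and 1383 to 3340 in the hypertrophic arrays, and their part in the Acvrl1 and Epas1 dips was not tested. Thbs3, a thrombospondin gene of cartilage, was a peak with 7520.1, 7466, 7872, 9057 and 6946 in the proliferative, 2467, 2213, 2093, 2377 and 2122 in the resting and 1719, 1952, 2265, 1298 and 2009 in the hypertrophic arrays, at 1.93 ± 0.13.

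Muscle genes outside the 12 largest dips included Casq1, the calcium store of the sarcoplasmic reticulum, which averaged 126 ± 45.2 in the proliferative, 1495 ± 722 in the resting and 316 ± 126 in the hypertrophic arrays, and Neb, nebulin, with 93.4 ± 53.5, 588 ± 705 and 340.3 ± 48.9. The differences were -2.27 ± 0.24 and -1.89 ± 0.39. The Casq1 dip was lost without animal 1, 2, 3 or 5 (adjusted p from 0.0559 to 0.208) and the Neb dip without animal 1, 2, 3, 4 or 5 (adjusted p from 0.0536 to 0.186).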
